A study of Homo sapiens with 40 samples.

Results

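The comparison described here set BEAS-2B cells given a low concentration of the EP4 agonist ONO-AE1-329 (0.1 nM) together with RNO (1 uM) against cells given a higher concentration of the agonist (1 nM) without RNO. The 8 libraries were taken by their treatment label, 4 for each treatment, out of 40 libraries in 10 groups of 4, and all genes in the table were examined. BEAS-2B is an immortalised line derived from human bronchial epithelium. The cells of every group were confluent, had been kept overnight without serum, and were treated for 2 h before RNA was extracted for poly(A) RNA sequencing. The treatments are called ONO 0.1 nM + RNO and ONO 1 nM below, and cells given RNO (1 uM), ONO 1 uM or ONO 0.1 nM alone, or vehicle, are used beside them. The treatments compared differ in both the agonist concentration and RNO, so the contributions of these differences to any gene cannot be told apart from this contrast alone.

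EP4 is a receptor for prostaglandin E2 that couples through Gs to adenylyl cyclase, and so raises the second messenger cAMP. Phosphodiesterases of the PDE4 family break cAMP down, and RNO, roflumilast N-oxide, inhibits them. cAMP activates protein kinase A, which phosphorylates the transcription factor CREB, and CREB drives a fast set of target genes such as the NR4A orphan nuclear receptors, several of which encode proteins that limit the cAMP signal. A low agonist concentration with breakdown inhibited and a higher concentration with breakdown intact are both ways of raising the same messenger.

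Levels are the authors' TPM (a transcript's share of all RNA molecules, scaled for transcript length) after adjustment between samples. The totals lay between 958669 and 993082 in ONO 0.1 nM + RNO libraries and between 974364 and 1010161 in ONO 1 nM libraries, and 1 entry, listed as MIR6723, held 24.3% to 27.1% of them. The numbers of reads were not analysed here, so the depth is unknown and the errors given are those between libraries. Among markers of airway epithelium, KRT8 averaged 376 TPM in ONO 0.1 nM + RNO cells and 355 TPM in ONO 1 nM cells and KRT18 313 TPM in ONO 0.1 nM + RNO cells and 289 TPM in ONO 1 nM cells, while EPCAM (0.312 and 0.297 TPM) and the adhesion protein CDH1 (0.712 and 0.752 TPM) were near 0. The other 4 of 9 epithelial markers listed (KRT5, KRT14, KRT19 and TP63) and all 6 ciliated and secretory markers were not analysed here. Of 7 fibroblast and mesenchymal markers, 5 were measured and reached a mean of 1 TPM, and DCN and LUM were not analysed here, with summed levels of 1810 to 1870 TPM in ONO 0.1 nM + RNO libraries and 1810 to 1890 TPM in ONO 1 nM libraries. None of the 3 endothelial markers measured, of 5 listed, reached a mean of 1 TPM, and of the 2 leukocyte markers measured, of 7 listed, CD68 did.

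The treatments gave closely similar transcriptomes at the precision of 4 libraries each. Among the 12591 genes whose mean over all libraries reached 1 TPM, 0 (0%) passed an adjusted p of 0.05 in limma's moderated test with Benjamini-Hochberg adjustment. At an unadjusted p under 0.05 there were 383, and the lowest adjusted p was 0.576. With the replicate number as a term, a fit described below, 1176 genes had an unadjusted p under 0.05. Without that term, the 95% interval of the difference lay within 1.5-fold in either direction for 12270 genes (97.5%) and within 2-fold for 12495 (99.2%). With it, 12339 (98%) lay within 1.5-fold. These intervals are of log2(TPM + 1), so the differences of low genes come out too small in them. The log2 difference, ONO 0.1 nM + RNO minus ONO 1 nM, had a median of -0.001 over all genes and lay between -0.11 and 0.12 for all but the lowest and highest 5% of them, and 17 genes (0.135%) differed by at least 2-fold in their mean levels. Nothing in the labels says that replicates were separate cultures, so p-values measure only the spread between these libraries. In bulk RNA, less RNA per cell and fewer cells expressing a gene cannot be told apart.

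Libraries with the same replicate number deviated together, and with the number as a term in the same fit 25 genes were called (0.199%), 20 of them higher (0.159%) and 5 lower (0.0397%) in ONO 0.1 nM + RNO cells. Rescaling the libraries to equal totals, which lifted the median of all genes to 0.03 on the log2 scale, changed that split to 136 higher and 6 lower. The count also rested on single libraries. It was 14, 6, 7 and 6 without replicate 1, 2, 3 or 4 of ONO 0.1 nM + RNO, 16, 5 and 1 without replicate 1, 2 or 4 of ONO 1 nM, 123 without vehicle replicate 3 and 1 when only the libraries of both treatments were fitted. Vehicle replicate 3 had the highest total of all libraries, 1091466. The SD of its deviations from the group mean was 0.209, against 0.0997 to 0.13 in libraries of both treatments. Comparisons with vehicle include this library unless stated. Genes described below as called with the replicate number passed only in that fit, and none of them passed without it.

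The NR4A receptors, which act as transcription factors without a known ligand and are early cAMP targets, include the gene with the largest difference among the 25 called with the replicate number. NR4A3 had 7.86, 11.02, 10.1 and 9.47 TPM in ONO 0.1 nM + RNO libraries, against 4.71, 6.34, 5.22 and 5.02 TPM in ONO 1 nM libraries. The groups did not overlap, so every ONO 0.1 nM + RNO library lay above its same-numbered ONO 1 nM library. The means were 9.62 ± 1.33 and 5.32 ± 0.708 TPM (SD, n = 4 each), a ratio of 1.81 and a log2 difference of 0.75 ± 0.18 (SE, 95% interval 0.39 to 1.11). NR4A3 was called with the replicate number (limma, adjusted p = 0.0231) and not without it (adjusted p = 0.576, 0.154 to 1 over the other settings without it). In fits with the replicate number it was called in 10 of 22 settings, and leaving out any 1 of the 8 libraries but ONO 1 nM replicate 3 ended the call. Vehicle cells had 1.35 ± 0.495 TPM and cells given RNO alone 2.65 ± 1.05 TPM, so NR4A3 was 7.14-fold and 3.95-fold above vehicle in ONO 0.1 nM + RNO and ONO 1 nM cells (adjusted p = 2.99e-10 and 2.35e-06, limma, with shared vehicle libraries).

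The promoters of NR4A3 and of LDHA, a second gene called with the replicate number, are shown because the cAMP response element that CREB binds, TGACGTCA, or its half-site TGACG, which reads as CGTCA on the other strand, can be read in them. Both are RefSeq sequences on GRCh38.p14, from 250 bases before to 50 after the gene's start, written 5′ to 3′ along the gene, with matches in capitals. The NR4A3 promoter lies at chr9:99821635-99821934 on the + strand and holds 4 half-sites and no full element. The LDHA promoter lies at chr11:18394313-18394612 on the + strand and holds 1 full element.
NR4A3: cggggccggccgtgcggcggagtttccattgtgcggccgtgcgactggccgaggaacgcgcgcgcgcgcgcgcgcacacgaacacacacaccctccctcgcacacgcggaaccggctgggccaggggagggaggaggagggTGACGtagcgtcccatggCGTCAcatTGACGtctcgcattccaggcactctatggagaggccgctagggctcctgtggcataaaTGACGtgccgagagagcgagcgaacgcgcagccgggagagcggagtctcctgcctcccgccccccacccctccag
LDHA: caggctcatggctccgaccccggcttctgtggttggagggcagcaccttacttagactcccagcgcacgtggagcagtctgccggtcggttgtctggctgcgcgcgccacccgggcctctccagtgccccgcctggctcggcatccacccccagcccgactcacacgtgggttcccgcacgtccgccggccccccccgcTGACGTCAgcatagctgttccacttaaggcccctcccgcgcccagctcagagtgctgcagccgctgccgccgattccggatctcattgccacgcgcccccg
A full element, searched on both strands, was in 1.978% of 27305 RefSeq promoters and in 3.4% of the 9430 that matched genes tested here. A half-site, counted also inside full elements, was in 25.01% and 35.2% of the same promoters. The matches are letters in a window and say nothing of whether a factor was bound.

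NR4A2 showed the second difference of the family, with 4.18, 3.91, 3.85 and 3.47 TPM in ONO 0.1 nM + RNO libraries, against 2.67, 2.71, 2.11 and 2.64 TPM in ONO 1 nM libraries. These groups did not overlap either, and the ratio of means was 1.52, but the log2 difference of 0.46 ± 0.18 (SE) passed no call (limma, adjusted p = 1, and 0.256 with the replicate number). NR4A1 had 28.2, 35.9, 30.5 and 37.4 TPM in ONO 0.1 nM + RNO libraries, against 20.5, 31.6, 22.6 and 22.3 TPM in ONO 1 nM libraries. Its groups overlapped through ONO 1 nM replicate 2, and the 95% interval of its log2 difference, 0.00 to 0.88, reached from no difference to more than 1.5-fold. Against the shared vehicle libraries NR4A1 was called in ONO 0.1 nM + RNO cells (1.90-fold, adjusted p = 0.02, limma) and not in ONO 1 nM cells (1.39-fold, adjusted p = 0.333), a contrast that the direct comparison did not establish. For NR4A1 the window read (chr12:52022582-52022881, + strand, GRCh38.p14) held no half-site. Only a single listed start was read for each gene, so promoters at any other NR4A1 start were not examined.

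**Figure D1:**
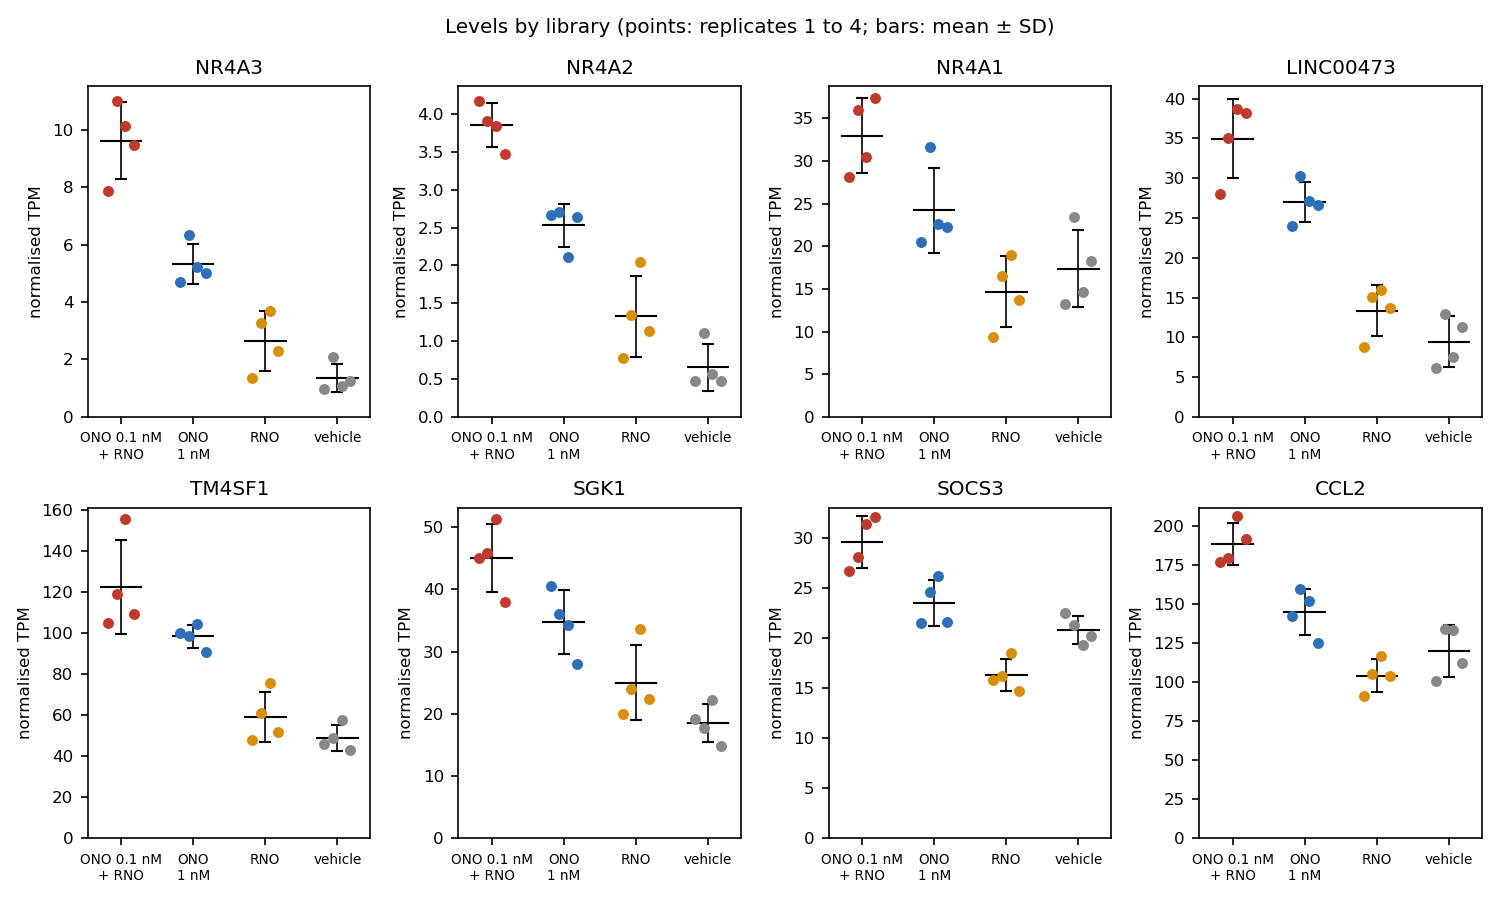
Normalised TPM of 8 genes (1 panel each) in the libraries of ONO 0.1 nM + RNO, ONO 1 nM, RNO and vehicle, with points for replicates 1 to 4 and bars for mean ± SD (n = 4). For NR4A3 the ONO 0.1 nM + RNO libraries sit between 7.86 and 11.02 TPM, above all 4 ONO 1 nM libraries, which sit between 4.71 and 6.34 TPM.

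The wider agonist response leaned the same way. ONO 1 uM changed 7.21% of all genes against vehicle (4.19% higher, 3.02% lower), 908 genes, or 2090 with the replicate number. Among these it raised 77 genes at least 2-fold. The fold changes of this set came from neither treatment's libraries, though these entered the filter and the estimate of spread. Of the 77 genes, 69 had a higher mean log2 level in ONO 0.1 nM + RNO than in ONO 1 nM cells. The share among all genes tested was 48.9%. The median log2 difference of the set was 0.13, with a range from -0.13 for PDE4B to 0.75 for NR4A3. In 39 of the 77 genes all 4 same-numbered pairs were higher in ONO 0.1 nM + RNO, compared with 11% of all genes, and in 2 (PDE4B and IRX1) all 4 were lower. The groups did not overlap, with ONO 0.1 nM + RNO higher, for 7 of the 77 (CHMP1B, NPTX1, NR4A2, NR4A3, RAB3A, SOCS3 and TM4SF1), compared with 1.22% of all genes, and for none with it lower, compared with 1.06%. With any 1 of the 8 libraries left out 63 to 69 genes stayed above 0, and 71 were above 0 with equal totals, where 8571 of all 12591 genes were.

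On average over the 77 genes, the differences were small beside the response to ONO 1 uM, and less so beside that to ONO 1 nM. The rise from vehicle to ONO 1 uM chose these genes, so its large size here was built in. Averaged over the 77 genes, log2(TPM + 1) was 3.31, 3.41, 3.44 and 3.38 in ONO 0.1 nM + RNO libraries, against 3.23, 3.30, 3.21 and 3.20 in ONO 1 nM libraries. The treatments did not overlap, though ONO 0.1 nM + RNO replicate 1 stood barely above ONO 1 nM replicate 2. The same average was 2.90 ± 0.12 in RNO cells, and along the agonist series it was 2.76 ± 0.07 in vehicle, 2.80 ± 0.09 at 0.1 nM, 3.24 ± 0.05 at 1 nM and 4.05 ± 0.09 at 1 uM (SD, n = 4 each). The 95% interval of the difference lay within 1.5-fold for 65 of the 77 genes and within 2-fold for 76, all but NR4A3. Against the shared vehicle libraries 50 of the 77 were called in ONO 0.1 nM + RNO cells and 35 in ONO 1 nM cells, all higher. Of all genes tested, 1.12% (0.905% higher, 0.214% lower) were called in ONO 0.1 nM + RNO cells and 1.01% (0.651% higher, 0.357% lower) in ONO 1 nM cells. The 77 were chosen as raised against these same vehicle libraries, so larger shares than among all genes were partly built in. With the replicate number the calls over all genes were 645 and not 141 in ONO 0.1 nM + RNO cells, and 1066 and not 127 in ONO 1 nM cells.

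**Figure D2:**
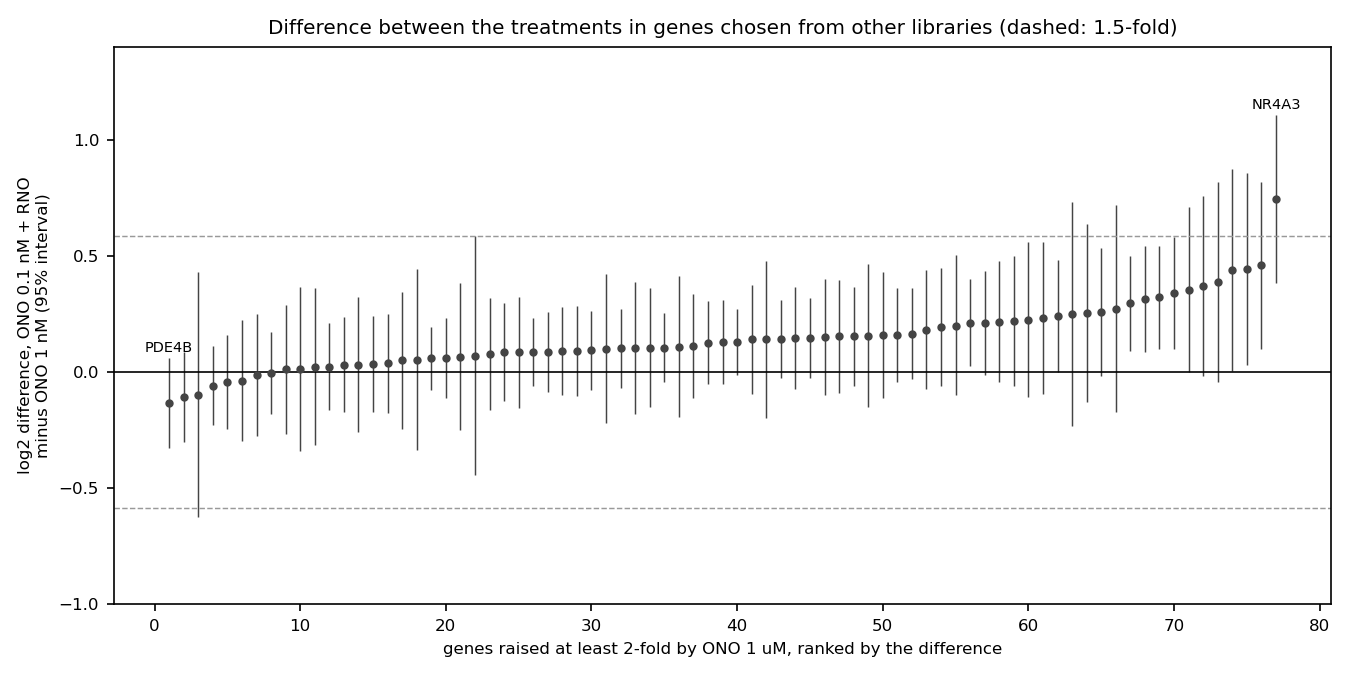
Log2 difference, ONO 0.1 nM + RNO minus ONO 1 nM, with 95% intervals from the fit without the replicate number, for the 77 genes raised at least 2-fold by ONO 1 uM, ranked along the horizontal axis. Most points lie above the line at 0 (69 of 77) and inside the dashed lines at 1.5-fold, with NR4A3 highest at 0.75 and PDE4B lowest at -0.13.

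LINC00473, a long non-coding RNA induced by cAMP, had 27.99, 35.0, 38.7 and 38.2 TPM in ONO 0.1 nM + RNO libraries, against 24.0, 30.2, 27.1 and 26.6 TPM in ONO 1 nM libraries. Only ONO 0.1 nM + RNO replicate 1 fell inside the ONO 1 nM range, and the log2 difference was 0.36 with a 95% interval of 0.00 to 0.71. TM4SF1, a surface protein of the tetraspanin-like family, had 105, 119, 156 and 109 TPM in ONO 0.1 nM + RNO libraries, against 100.1, 98.5, 104 and 90.8 TPM in ONO 1 nM libraries, without overlap (log2 difference 0.30, interval 0.09 to 0.50, adjusted p = 1 in limma and 0.172 with the replicate number).

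The kinase SGK1 had 45.0, 45.8, 51.3 and 38.0 TPM in ONO 0.1 nM + RNO libraries, against 40.6, 36.0, 34.3 and 28.1 TPM in ONO 1 nM libraries, with groups that overlapped. RGS2, a regulator that shortens G protein signals, averaged 18.7 ± 1.83 TPM in ONO 0.1 nM + RNO cells and 15.6 ± 3.84 TPM in ONO 1 nM cells (SD, n = 4 each). The zinc finger gene ZNF331 averaged 20.3 ± 1.203 and 17.4 ± 2.14 TPM in the same cells, and the secreted protein gene CRISPLD2 5.13 ± 1.13 and 4.29 ± 1.22 TPM. All 3 were higher in all 4 same-numbered pairs, their groups overlapped, and each 95% interval included 0.

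Some agonist targets differed little between the treatments. With all libraries the differences of those described here lay above 0, but leaving out certain single libraries turned the sign of each. The surface protein CD24 had 36.6, 29.9, 33.7 and 23.2 TPM in ONO 0.1 nM + RNO libraries, against 39.9, 30.2, 29.98 and 22.9 TPM in ONO 1 nM libraries. The ranges lay almost on each other, and the log2 difference was 0.01 with a 95% interval of -0.34 to 0.37. CD200, an immunoglobulin-family surface protein, averaged 4.55 ± 1.10 TPM in ONO 0.1 nM + RNO cells and 4.19 ± 0.458 TPM in ONO 1 nM cells, and PPP1R3C, a glycogen-targeting phosphatase subunit, 7.48 ± 0.591 and 7.30 ± 0.665 TPM. Both were within 1.5-fold by their intervals, and both were at least 2-fold above vehicle in each treatment, where CD200 averaged 1.62 ± 0.323 and PPP1R3C 3.64 ± 0.398 TPM.

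No receptor, cyclase or kinase gene of the cAMP pathway was called. PTGER4, which encodes EP4, had 1.66, 1.32, 1.04 and 1.26 TPM in ONO 0.1 nM + RNO libraries, against 1.32, 1.11, 1.28 and 1.18 TPM in ONO 1 nM libraries, with overlapping groups and an interval of -0.12 to 0.23 on the log2 scale. Of 12 genes tested for receptors, G proteins and adenylyl cyclases 5 lay above 0 and 7 below, and of 22 for protein kinase A, CREB and their regulators 12 above and 10 below. None of either list was called with or without the replicate number, and the list medians were -0.02 and 0.01, where that of all genes was -0.001. AKAP12, a scaffold that anchors protein kinase A, had the second-largest difference of its list, 0.24 with an interval of 0.00 to 0.48, after SIK1, a kinase that restrains CREB co-activators, at 0.25 with an interval of -0.23 to 0.73. The table holds SIK1 as a joint entry with LOC102724428, so its reads may be shared with that copy.

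Of the phosphodiesterases that RNO inhibits, none was called. PDE4B had 2.14, 1.84, 1.69 and 2.13 TPM in ONO 0.1 nM + RNO libraries, against 2.33, 1.92, 2.34 and 2.35 TPM in ONO 1 nM libraries. Each ONO 0.1 nM + RNO library lay below its same-numbered ONO 1 nM library, although the ranges overlapped and the log2 difference of -0.13 had an interval of -0.33 to 0.06 (adjusted p = 1 in limma, 0.59 with the replicate number). PDE4D had 4.92, 5.50, 6.44 and 5.30 TPM in ONO 0.1 nM + RNO libraries, against 4.13, 5.26, 4.77 and 5.25 TPM in ONO 1 nM libraries, higher in all 4 pairs with an interval of -0.04 to 0.36. PDE4A averaged 1.76 ± 0.281 TPM in ONO 0.1 nM + RNO cells and 1.67 ± 0.215 TPM in ONO 1 nM cells, and PDE4C, too low for the test, averaged 0.448 TPM over all libraries. Against vehicle, PDE4B and PDE4D were called in both treatments, at 1.97-fold and 2.54-fold in ONO 0.1 nM + RNO cells and 2.26-fold and 2.22-fold in ONO 1 nM cells. Over all 7 cAMP phosphodiesterases tested, 3 lay above 0 and 4 below.

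The genes called with the replicate number stood in different places relative to vehicle. Of the 20 higher in ONO 0.1 nM + RNO cells, 14 had a mean below vehicle in ONO 1 nM cells, and 6 of these were below vehicle in ONO 0.1 nM + RNO cells too. In the other 6, NR4A3 and SLC38A2 among them, ONO 1 nM lay above vehicle and ONO 0.1 nM + RNO higher still. The ratios of the 20 ran from 1.06 to 1.81. For 6 of the 20 the groups did not overlap, compared with 1.22% of all genes. The 20 were called on the same libraries, so a raised share was built in. Called genes named by rule also had to have the same direction in every same-numbered pair. Their agreement within pairs was therefore fixed by selection. Of the 25 genes 18 had a RefSeq promoter, of which 1 held the full cAMP response element and 6 (33.3%) a half-site.

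ADM, the vasodilator peptide adrenomedullin, had 114, 91.8, 108 and 83.9 TPM in ONO 0.1 nM + RNO libraries, against 88.9, 74.6, 86.7 and 57.2 TPM in ONO 1 nM libraries and a mean of 112 ± 15.4 TPM in vehicle. The ranges overlapped. Each same-numbered pair was higher in ONO 0.1 nM + RNO, but such agreement was required for naming ADM. The ratio was 1.30 (limma, adjusted p = 0.0142 with the replicate number and 1 without it). RGS4, which speeds the switching off of G proteins, had 4.05, 3.37, 3.39 and 3.08 TPM in ONO 0.1 nM + RNO libraries, against 2.94, 2.85, 2.37 and 1.83 TPM in ONO 1 nM libraries, without overlap and with a ratio of 1.39 (adjusted p = 0.0142 with the replicate number). RGS4 stood at 5.10 ± 0.621 TPM in vehicle, and ONO 1 nM cells were called lower than vehicle (0.49-fold, adjusted p = 0.000177, limma) while ONO 0.1 nM + RNO cells were not (0.68-fold, adjusted p = 0.0861). With the replicate number both were called lower than vehicle (adjusted p = 2.96e-05 for ONO 0.1 nM + RNO and 1.24e-09 for ONO 1 nM).

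F3 encodes tissue factor, which starts blood coagulation, and TFPI2 a Kunitz-type inhibitor of serine proteases. F3 had 267, 209.5, 194 and 194 TPM in ONO 0.1 nM + RNO libraries, against 227, 168, 177 and 142 TPM in ONO 1 nM libraries. Replicate 1 was the highest library of both treatments. Within pairs ONO 0.1 nM + RNO was higher throughout, but such agreement was required for naming F3. The ratio was 1.21 (limma, adjusted p = 0.0142 with the replicate number). TFPI2 had 5.58, 6.33, 6.90 and 5.60 TPM in ONO 0.1 nM + RNO libraries, against 4.24, 4.70, 4.996 and 5.29 TPM in ONO 1 nM libraries, without overlap (ratio 1.27, adjusted p = 0.0256 with the replicate number). ONO 1 nM cells matched the TFPI2 level of vehicle, 4.71 ± 0.413 TPM, closely, with a mean of 4.81 ± 0.449 TPM.

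KRT7, a keratin of simple epithelia, had 15.5, 14.4, 14.7 and 14.9 TPM in ONO 0.1 nM + RNO libraries, against 14.2, 11.5, 10.6 and 10.5 TPM in ONO 1 nM libraries, and 15.6 ± 0.809 TPM in vehicle. The groups did not overlap, although ONO 1 nM replicate 1 came close to the lowest ONO 0.1 nM + RNO library (ratio 1.27, adjusted p = 0.0231 with the replicate number). PSG1, a pregnancy-specific glycoprotein, had 27.7, 31.4, 31.3 and 29.1 TPM in ONO 0.1 nM + RNO libraries, against 22.9, 24.4, 25.7 and 25.6 TPM in ONO 1 nM libraries. It had the lowest adjusted p of the comparison, 0.000511 with the replicate number for a ratio of 1.21, and was called in 21 of 22 settings of that fit, all but the one with only these libraries. PSG1 and PSG2, which was called too with a ratio of 1.13, belong to a family of near-identical genes, and reads may have been split among them.

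The remaining named genes differed by less than 1.2-fold. For CCND1, as for ADM and F3, the same direction in every pair was a condition of naming, so it is not separate evidence. CCND1, cyclin D1 of the G1 phase, had 135, 102, 98.5 and 96.2 TPM in ONO 0.1 nM + RNO libraries, against 113, 89.1, 93.0 and 70.3 TPM in ONO 1 nM libraries, overlapping but higher in each pair (ratio 1.18, adjusted p = 0.0384 with the replicate number). GREM1, a secreted antagonist of bone morphogenetic proteins, averaged 193 ± 9.71 TPM in ONO 0.1 nM + RNO cells and 169.7 ± 13.9 TPM in ONO 1 nM cells, and LDHA, the lactate dehydrogenase subunit whose promoter is shown above, 567 ± 18.3 and 503 ± 38.2 TPM. POLR3G, a subunit of RNA polymerase III, averaged 62.9 ± 3.72 and 56.0 ± 5.27 TPM, and SLC38A2, a transporter of neutral amino acids, 218 ± 18.5 and 194 ± 12.2 TPM in the same cells. The other 8 higher genes were PSG2, the ETS factor ELK3, LARP4B, the Wnt antagonist SFRP1, the carboxypeptidase CPA4, the CTP synthase CTPS1, PPME1 and the protease CAPN2, with ratios of 1.06 to 1.13.

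The 5 genes lower in ONO 0.1 nM + RNO cells shared no list used here. LHPP, a phosphatase, had 9.44, 10.6, 10.7 and 10.1 TPM in ONO 0.1 nM + RNO libraries, against 10.3, 13.9, 12.6 and 14.8 TPM in ONO 1 nM libraries, overlapping through ONO 1 nM replicate 1 (ratio 0.79, adjusted p = 0.019 with the replicate number). REEP1, which shapes the endoplasmic reticulum, had 9.05, 8.62, 7.84 and 8.86 TPM in ONO 0.1 nM + RNO libraries, against 9.88, 10.3, 9.88 and 10.3 TPM in ONO 1 nM libraries, without overlap (ratio 0.85). SLC35E2, a member of a solute carrier family whose near-identical paralogue may share its reads, averaged 3.08 ± 0.114 TPM in ONO 0.1 nM + RNO cells and 3.84 ± 0.0900 TPM in ONO 1 nM cells, also without overlap. LTBP4, which binds latent TGF-beta in the matrix, and MEGF6, a protein with EGF-like domains, had ratios of 0.88 and 0.89, and both calls ended with equal totals.

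**Figure D3:**
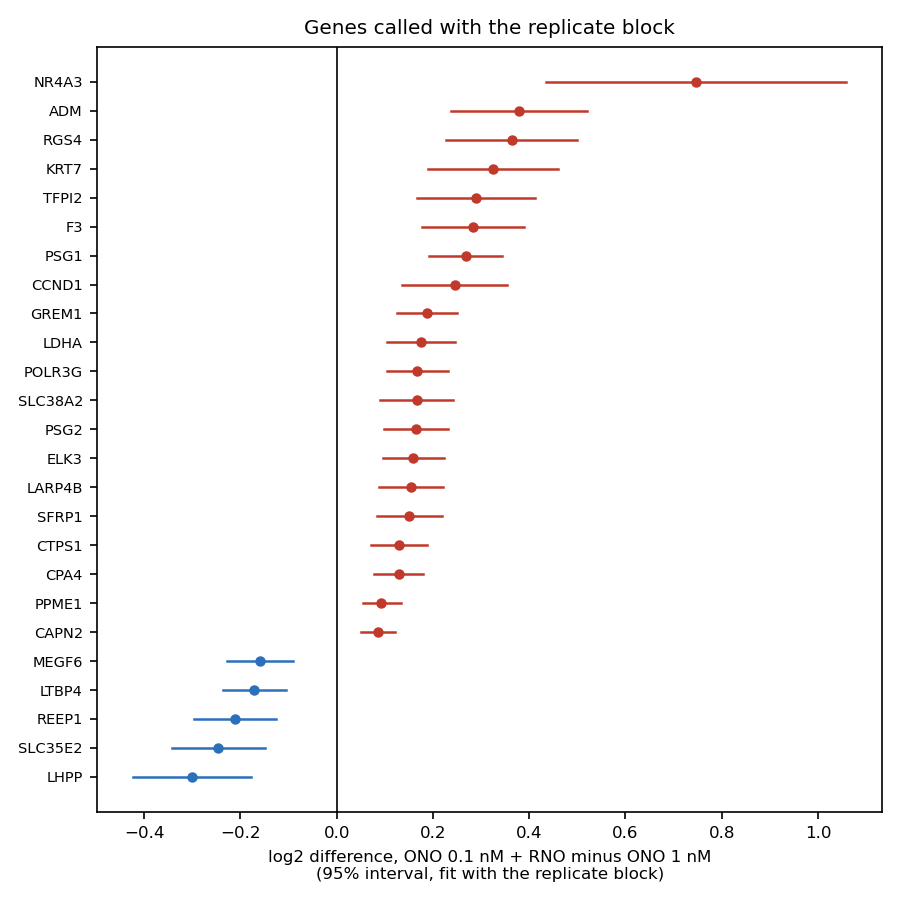
Log2 difference, ONO 0.1 nM + RNO minus ONO 1 nM, with 95% intervals from the fit with the replicate number, for the 25 genes called in that fit (red higher, blue lower). The differences run from 0.75 for NR4A3 down to 0.09 for CAPN2 among the 20 higher genes, and from -0.16 to -0.30 among the 5 lower ones.

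Cytokine genes and regulators of inflammatory signalling leaned towards ONO 0.1 nM + RNO without a call. The chemokine CCL2 had 177, 179, 206 and 191 TPM in ONO 0.1 nM + RNO libraries, against 142, 159.5, 152 and 125 TPM in ONO 1 nM libraries. The groups did not overlap, and the log2 difference was 0.38 with an interval of 0.16 to 0.60 (adjusted p = 1 in limma, 0.0648 with the replicate number, and 0.0362 in that fit without vehicle replicate 3). CCL2 averaged 119.9 ± 16.4 TPM in vehicle, and the call against vehicle was made for ONO 0.1 nM + RNO (1.57-fold, adjusted p = 0.000269) and not for ONO 1 nM (1.21-fold, adjusted p = 0.261).

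IL11, a cytokine of the IL-6 family, had 63.0, 93.5, 99.5 and 85.8 TPM in ONO 0.1 nM + RNO libraries, against 56.3, 71.9, 68.2 and 52.4 TPM in ONO 1 nM libraries. IL6 had 10.2, 6.80, 8.84 and 8.92 TPM in ONO 0.1 nM + RNO libraries, against 6.85, 7.16, 5.81 and 5.67 TPM in ONO 1 nM libraries. Both overlapped, IL11 through replicate 1 and IL6 through replicate 2 of ONO 0.1 nM + RNO. Over the 11 cytokine and chemokine genes tested 10 lay above 0, with a median of 0.07 and 0 called.

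DUSP1, a phosphatase that switches off stress-activated kinases, had 104, 116, 109 and 116 TPM in ONO 0.1 nM + RNO libraries, against 81.4, 92.3, 73.2 and 72.0 TPM in ONO 1 nM libraries. Its groups were well apart, with a ratio of 1.39 and an interval of 0.19 to 0.76 on the log2 scale (adjusted p = 1 in limma, 0.0532 with the replicate number, 0.0302 in that fit without vehicle replicate 3). SOCS3, an inhibitor of cytokine receptor signalling, had 26.7, 28.1, 31.4 and 32.1 TPM in ONO 0.1 nM + RNO libraries, against 21.5, 24.6, 26.2 and 21.7 TPM in ONO 1 nM libraries, without overlap and with an interval of 0.10 to 0.54. Of 19 negative regulators of inflammatory signalling 17 lay above 0 (median 0.09), and of 17 glucocorticoid-responsive genes, a list that shares 4 of its genes (DUSP1, NFKBIA, TSC22D3 and CDKN1C), 14 (median 0.10). The glucocorticoid list also holds SGK1, RGS2 and CRISPLD2, already described above, so its lean is not a separate observation. Neither list held a call in either fit.

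Genes that RNO alone changed were compared next, since RNO was present in 1 treatment only. RNO alone changed 30 genes against vehicle (0.238% of those tested), lowering 17 (0.135%) and raising 13 (0.103%). With the replicate number it changed 643 (326 lower, 317 higher), and leaving out 1 library gave 8 to 57 without that number, so the sets of 17 and 13 depend on the fit. All 17 lowered genes had a higher mean log2 level in ONO 0.1 nM + RNO than in ONO 1 nM cells, by a median of 0.08, and 15 to 17 did with any 1 library left out. DUSP5, a phosphatase of ERK, had 50.8, 50.2, 52.0 and 54.4 TPM in ONO 0.1 nM + RNO libraries, against 40.7, 48.7, 49.7 and 38.3 TPM in ONO 1 nM libraries, without overlap, and 71.7 ± 7.04 TPM in vehicle.

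The 13 genes that RNO raised lay close together in both treatments. Of these, 11 had a lower mean log2 level in ONO 0.1 nM + RNO than in ONO 1 nM cells, by a median of 0.05, which became 8 with equal totals. TP53INP1, a gene of the p53 stress response, had 10.7, 10.4, 10.0 and 9.09 TPM in ONO 0.1 nM + RNO libraries, against 10.9, 11.1, 10.5 and 11.6 TPM in ONO 1 nM libraries, lower in every pair (interval -0.21 to -0.04, not called). All 30 genes that RNO alone changed had intervals within 1.5-fold.

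**Figure D4:**
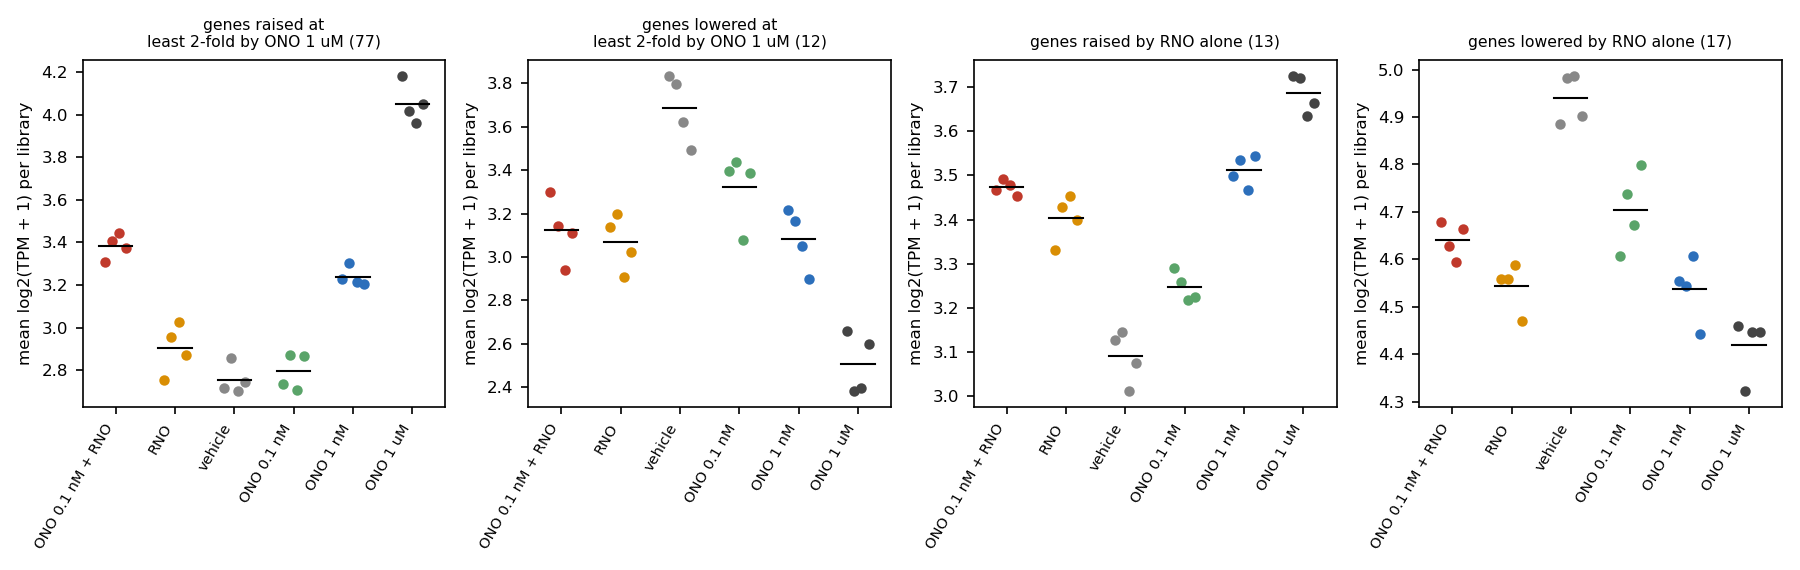
Mean log2(TPM + 1) per library over 4 sets of genes chosen from ONO 1 uM or RNO against vehicle, with points for libraries and lines for group means. ONO 0.1 nM + RNO lies at 3.38 and ONO 1 nM at 3.24 for the 77 genes raised by ONO 1 uM, and the treatments overlap for the 12 genes that ONO 1 uM lowered, the 13 that RNO raised and the 17 that RNO lowered.

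Of the 12 genes that ONO 1 uM lowered at least 2-fold, 9 had a higher mean log2 level in ONO 0.1 nM + RNO than in ONO 1 nM cells (median 0.08, 1 called with the replicate number, RGS4), but 5 did without ONO 0.1 nM + RNO replicate 1 (median -0.03). EGR1, an immediate early transcription factor, averaged 10.3 ± 2.15 TPM in ONO 0.1 nM + RNO cells, 9.99 ± 1.82 TPM in ONO 1 nM cells and 19.0 ± 4.20 TPM in vehicle. The AP-1 subunit FOSL1 averaged 90.7 ± 15.7, 87.5 ± 12.4 and 141 ± 15.9 TPM in these groups. Both were called lower than vehicle in either treatment (adjusted p = 0.00157 and 0.00128 for EGR1, 0.00298 and 0.0016 for FOSL1, limma), and their intervals for the direct difference were -0.29 to 0.35 and -0.21 to 0.30. Over 23 immediate early genes 21 lay above 0, but by a median of 0.06, and 14 did in the lowest of the fits with 1 library left out.

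The effect of the agonist was also compared with each treatment's own background, as ONO 0.1 nM under RNO minus RNO, less ONO 1 nM minus vehicle. This equals the direct difference less the effect of RNO alone, so a gene that RNO changed by itself can pass it with like levels in both treatments. In limma 20 genes were called (0.159%), 15 higher (0.119%) and 5 lower (0.0397%), and 490 with the replicate number (3.89%). Among them were ADM at 0.93 ± 0.18 and DUSP5 at 0.90 ± 0.16 (log2, SE, adjusted p = 0.0163 and 0.00925). SPRY4 and KRT7 were also called higher, and the lowest was PDE4B at -0.67 ± 0.14 (adjusted p = 0.0163). ADM averaged 76.5 ± 13.7 TPM in RNO cells, against 99.6 ± 14.2 TPM in ONO 0.1 nM + RNO cells, 76.9 ± 14.5 TPM in ONO 1 nM cells and 112 ± 15.4 TPM in vehicle. PDE4B averaged 1.90 ± 0.290 TPM in RNO cells, near the 1.95 ± 0.225 TPM of ONO 0.1 nM + RNO cells, while ONO 1 nM cells had 2.24 ± 0.207 TPM and vehicle 0.990 ± 0.104 TPM. Without single libraries the 20 calls became 5 (ONO 1 nM replicate 4), 8 (ONO 0.1 nM + RNO replicate 1), 8 (RNO replicate 4) or 13 (replicate 2 of either treatment), and 1 with only these 4 groups fitted.

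The other lists held small differences. All 13 genes tested of surface proteins, keratins and prostanoid synthesis lay above 0 (median 0.12, 1 called with the replicate number, KRT7), with KRT17 at 448 ± 26.2 TPM in ONO 0.1 nM + RNO cells and 421 ± 38.6 TPM in ONO 1 nM cells. Of 13 MAP kinase phosphatase and Sprouty genes 10 lay above 0 (median 0.07), and of 20 growth factor genes 15 (median 0.05), none called. Sterol synthesis genes leaned the other way, with 10 of 12 below 0 and a median of -0.05, as did cell cycle and mitosis genes, with 21 of 27 below 0 and a median of -0.03. With equal totals the last count was 14 of 27. The 1 cell cycle gene called with the replicate number, CCND1, lay above 0. RGS regulators (6 of 10 above 0), YAP and TEAD targets (9 of 14), TGF-beta and BMP feedback genes (7 of 13), circadian clock genes (10 of 15), arrestin and glycogen genes (9 of 14) and ATF4 and unfolded protein response genes (8 of 16) had medians between 0.000 and 0.04, and of these only RGS4 and F3 were called with the replicate number.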

How the data were processed

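RNA was measured in 40 libraries of BEAS-2B cells, 10 treatments with 4 replicates each, and each assigned to its group and number by its label. The authors deposited values for 15788 genes, which are a normalised signal, TPM adjusted between samples. Per the submitters' processing notes, bcl2fastq 2.18.0.12 was used along with kallisto and sleuth, whose versions are not given here, and GRCh37 and hg19 are named as builds. Plain TPM had been assumed for the design, but the column totals were unequal, so the values are treated as a signal, and the planned test was kept. With no counts analysed, the depth is unknown and the precision given is that between libraries.

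Values were transformed to log2(value + 1), and 12591 genes with a mean of at least 1 over all libraries were fitted by limma 3.58.1 (under R 4.3.3, files read by the data.table package, version 1.17.8), with 1 mean per group over all 40 libraries, a variance trend and 30 residual degrees of freedom. The threshold for a call was an adjusted p of 0.05 (Benjamini-Hochberg, over all genes tested). Adjusted p-values and 95% intervals of single genes are limma's. Differences are of log2(value + 1), so those of low genes come out too small, while ratios are of mean levels. The test was checked on simulated data.

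Same-numbered libraries of both treatments deviated together from their group means, with correlations over genes of 0.407, 0.159, 0.271 and 0.33 for numbers 1 to 4. All exceeded 0.1, the level set for treating the numbers as pairs. The labels do not say what a number marks. Results with the replicate number as a term (27 residual degrees of freedom) are given where they change a call.

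The genes, lists and treatments were chosen with earlier results of these data known. Named genes were, by a written rule, the 12 highest and 12 lowest called genes without overlap (none here), filled up to 12 a direction with genes called with the replicate number and of the same sign in all 4 pairs, then PTGER4, the PDE4 genes and list members, the 10 highest and 10 lowest of the genes ONO 1 uM changed at least 2-fold, and genes called for RNO alone. Genes listed outside this rule (CHMP1B, NPTX1, RAB3A, IRX1, PSG2 and the others of the 8 smaller calls) were named after their values were seen. Promoters came from RefSeq on GRCh38.p14 by symbol, with a single start read for each symbol. The alternatives were other pseudocounts, filters, scalings, variance settings, library weights, the replicate number, subsets of groups and single libraries left out. Lists were described by counts and medians, with no test. 1 gene that the rule names is not reported here.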

Additional observations from a re-analysis of the deposited data

Results flagged for a closer look

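Single libraries stood apart from the other 3 of their group in 3 of 86 sets of 4 libraries (43 genes in both treatments), by a gap above Dixon's 95% critical value for 4 samples. Chance flags about 1 in 20 such groups. In ONO 0.1 nM + RNO, CCND1 was at 135.0 TPM in replicate 1 and between 96.2 and 102 TPM in the other libraries. In ONO 1 nM, NR4A2 was at 2.108 TPM in replicate 3 and between 2.64 and 2.71 TPM in the others. PDE4B was at 1.924 TPM in ONO 1 nM replicate 2 and between 2.33 and 2.35 TPM in the others.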

How the results depend on the processing

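For ONO 0.1 nM + RNO against ONO 1 nM the count without the replicate block was 0 with every other pseudocount, filter, scaling, variance setting and weight, and 0 to 0 with each library left out. It was 25 with the replicate block, 123 with the block and vehicle replicate 3 left out, and 1 with the block and only these groups fitted. The block counts under further settings were chosen after seeing the data: 295 with library weights, 142 with equal totals, 123 without vehicle replicate 3, 1 with only these groups, 14, 6, 7 and 6 without replicates 1 to 4 of ONO 0.1 nM + RNO, 16, 5, 25 and 1 without those of ONO 1 nM, and 11, 2, 10 and 2 without replicates 1 to 4 of both. The 25 genes were all among the 295 and the 123, and 23 among the 142.

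The count for ONO effect under RNO less ONO effect without RNO (20) became 490 with the replicate block, 551 with the block and no vehicle replicate 3, 13 with equal totals, 1 with only its groups, 176 with its groups and the block, and 5 to 30 with 1 library left out. In the order block, block without vehicle replicate 3, own groups only, own groups with block, ONO 0.1 nM + RNO against vehicle (141) gave 645, 432, 37 and 67, ONO 1 nM against vehicle (127) gave 1066, 612, 28 and 60, RNO against vehicle (30) gave 643, 252, 0 and 6, and ONO 1 uM against vehicle (908) gave 2090, 1803, 359 and 417. RNO against vehicle also gave 14 with equal totals and 13 without vehicle replicate 3. Leaving out 1 library gave 96 to 204, 92 to 273, 8 to 57 and 684 to 1142 in the same order of comparisons. The 13 and 17 genes taken as changed by RNO therefore rest on the full set of libraries.

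Over 43 single genes and all settings, 845 of 897 log2 differences kept their direction and side of the threshold, 37 passed it (fits with the block) and 15 changed sign, none of them called. With a library left out the sign changed to -0.034 for CD200 (highest 0.204), to -0.074, -0.036 and -0.116 for CD24 (highest 0.142), to -0.015 and -0.01 for PDE4A (highest 0.105), to -0.013 for PTGER4 (highest 0.115), to -0.073, -0.014 and -0.097 for EGR1 (highest 0.137), to -0.063 and -0.042 for FOSL1 (highest 0.125), and to -0.015 and -0.016 for PPP1R3C (highest 0.076). With library weights PDE4A was at -0.004. The cause of these changes was not tested. Depth is unknown, so it sets no stated limit.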

Other observations

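Interferon-stimulated genes varied between libraries of one treatment more than between treatments. Over 12 such genes, 11 lay above 0 in ONO 0.1 nM + RNO minus ONO 1 nM, with a median log2 difference of 0.28, and 0 were called with or without the replicate number. Their mean log2(TPM + 1) was 2.80, 2.85, 3.77 and 4.03 in ONO 0.1 nM + RNO libraries, against 3.16, 2.95, 2.90 and 3.24 in ONO 1 nM libraries. The high libraries were replicates 3 and 4 of ONO 0.1 nM + RNO, and in vehicle they were replicates 2 and 4 (2.91, 3.85, 2.82 and 3.84). ISG15, a ubiquitin-like protein induced by interferon, had 23.1, 28, 77.9 and 111 TPM in ONO 0.1 nM + RNO libraries, against 33.4, 29.4, 32.1 and 44.4 TPM in ONO 1 nM libraries. MX1, an antiviral GTPase, had 1.73, 1.68, 9.79 and 14.7 TPM in ONO 0.1 nM + RNO libraries, against 4.24, 2.999, 1.65 and 3.79 TPM in ONO 1 nM libraries. Neither gene was higher in ONO 0.1 nM + RNO in more than 2 of the 4 pairs.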
